A study of Mus musculus with 7 samples.

Results

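The cytosolic ribosomal protein genes encode the protein part of the ribosome that translates every nuclear-encoded mRNA, and here their mRNA was followed through the cell classes of mouse mammary tumors. Members were taken by symbol alone: Rpl or Rps followed by a number, with an optional letter or l or x suffix, together with Rplp0, Rplp1, Rplp2, Rpsa and Fau. Symbols marked as pseudogenes, the Rps6k kinases and the mitochondrial ribosomal proteins were left out. Rpl6l and Rps4l fit the rule by symbol and stayed in, although GENCODE annotates both as processed pseudogenes, Rps4l as a transcribed one. The rule found 83 genes, 33 of the small subunit and 50 of the large subunit, among the 33710 symbols of the matrices. The matrices came from 7 mammary tumors, each from a different MMTV-PyMT; HK2 f/f mouse, measured by Drop-seq, in which single cells are caught in droplets and the 3′ ends of their transcripts are counted as unique molecular identifiers (UMIs). In this model a viral mammary promoter drives the polyoma middle T oncogene in mammary epithelium, so tumors arise without grafting. The labels give every library the genotype wild type and a collection time of 3 months after a palpable tumor, and they describe tamoxifen-induced systemic HK2 deletion as the study's treatment. According to the study's text, control mice such as these were given tamoxifen as well, once a tumor could be felt. The study's methods describe mice on a C57BL/6 background with floxed hexokinase 2 alleles. The control genotype given in the study names no Cre transgene. Tumors with HK2 deleted were not analysed here. Because all 7 libraries belong to a single group, the comparisons were made between cell classes of the same mice. The titles carry CB for replicates 1 to 4 and WT for replicates 5, 7 and 8, and the labels do not say what separates these title series.

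Each ribosome holds a copy of nearly every one of these proteins, and the mRNAs of most members are regulated together. Most begin at a C followed by a run of pyrimidines, the 5′ terminal oligopyrimidine (TOP) motif, through which mTORC1 and LARP1 control their translation. In immune tissue the family is known for taking a large part of the mRNA of resting lymphocytes, and in tumors growth signals raise ribosome production.

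RefSeq windows at annotated start sites were found for 61 of the 83 members on build GRCm38.p6, and 5 are printed because the results turn on these genes and their starts differ. Each line holds 10 bases before the annotated start in lower case and 20 bases from the start in capitals, on the strand of the gene, so the capitals open the first exon. The Rps27 window lies at chr3:90213629-90213658 on the minus strand, Rps27l at chr9:66946076-66946105 on the plus strand, Rps15a at chr7:118116128-118116157 on the minus strand, Rpl10 at chrX:74270806-74270835 on the plus strand and Fau at chr19:6057937-6057966 on the plus strand.
Rps27: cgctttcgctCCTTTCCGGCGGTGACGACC
Rps15a: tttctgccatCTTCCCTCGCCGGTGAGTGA
Fau: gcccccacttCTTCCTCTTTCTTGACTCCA
Rps27l: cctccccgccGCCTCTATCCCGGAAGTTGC
Rpl10: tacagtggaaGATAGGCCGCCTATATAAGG
The annotated starts of Rps27, Rps15a and Fau opened with C and 4 further pyrimidines, and those of Rps27l and Rpl10 did not. Over the 73 windows of the 61 matched genes, this opening was found in 14 (19.2%), against 2.51% of 32851 promoter windows of all genes. CTTTCC on the plus strand was found in 38.4% of member windows and 14.1% of all windows, CCGGAAG on either strand in 35.6% and 8.86%, and AAGATGG on either strand in 16.4% and 6.34%. Annotated starts can lie some bases from the start used in a cell, so a window without the motif says only that these letters were not at the annotated base.

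Barcodes with 200 to 6000 detected genes, mitochondrial genes dropped, gave 15047 cells, 1133 to 4780 per library, with a median of 527 to 694 UMIs per cell and 962677 to 4471473 UMIs per library. Marker genes put 11444 cells (76.1%) into classes, and 5 barcode sequences occurred in more than 1 library. The classes are tumor/alveolar epithelial-like (5546 cells), hormone-sensing luminal-like (793), fibroblast-like (1022), macrophage/monocyte-like (2285), T/NK-like (1358) and B-like (243), and the suffix is left out from here on. The other 197 classed cells fell into smaller classes, myoepithelial-like (60), endothelial-like (87) and dendritic-like (31) among them, which are not described. In each of the 6 classes described every marker of its own list was detected, which follows in part from the classing rule. The PYMT transgene is 1 of the 14 tumor/alveolar markers, so its contrast between classes is in part set by that rule. PYMT averaged 2441 ± 1599 CPM (SD, n = 7) in the tumor/alveolar class against means of 34.3 to 152 CPM in the other 5 classes. CPM are UMIs of a gene scaled to a total of 1e+06. T/NK cells numbered 11 in replicate 8 and 22 in replicate 3 against 90 to 351 in the other mice, and B cells were sufficient (10 or more) in replicates 1, 2, 4 and 5 alone. The class limits were soft: 565 tumor/alveolar cells lay within 1 percentage point above the limit on tumor markers, and 391 cells of the other classes rested on exactly 3 marker UMIs.

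The family took 2042072 of the 15913827 UMIs in cells, or 12.8%. UMIs count transcript 3′ ends, so levels are given per transcript end and were not divided by length. Over all cells of a library, 62 of the 83 members exceeded 1000 CPM on average and 6 stayed under 100 CPM. The most counted members were Rps14, a small subunit protein, at 4481 ± 1075 CPM (SD, n = 7), the stalk protein Rplp1 at 4195 ± 877 CPM, Rpl32 at 3654 ± 868 CPM, Rps9 at 3223 ± 741 CPM and Rps19, the gene most often mutated in Diamond-Blackfan anemia, at 3181 ± 617 CPM. The 10 most counted members held 25.3% of the family's CPM, so no small set of genes carried it. The 6 rarely counted members were Rps4l at 19.7 CPM, Rpl24 at 5.75 CPM, Rpl6l at 2.73 CPM, Rpl39l at 2.05 CPM, Rpl10l at 1.03 CPM and Rpl3l at 0.64 CPM. Rpl39l and Rpl10l are known as testis paralogs and Rpl3l as a striated muscle paralog of ubiquitous members, whereas Rpl24 encodes a protein of every ribosome.

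T/NK and B cells gave the family the largest part of their transcripts. Ribosomal protein genes took 23.3, 27.7, 19.0, 21.0, 21.0, 19.0 and 19.9% of T/NK UMIs in replicates 1, 2, 3, 4, 5, 7 and 8, a mean of 21.6 ± 3.10% (SD, n = 7). In B cells they took 21.7, 23.1, 20.4 and 18.6% in replicates 1, 2, 4 and 5, a mean of 20.9 ± 1.89% (n = 4). Tumor/alveolar cells of the same 7 mice stood at 14.1, 14.1, 17.98, 13.1, 12.1, 8.88 and 12.8%, a mean of 13.3 ± 2.72%. The T/NK share lay above the tumor/alveolar share in 7 of 7 mice, and the highest tumor/alveolar value (17.98% in replicate 3) stayed under the lowest T/NK value. The other classes gave less of their transcripts to the family. Hormone-sensing luminal cells ranged from 10.2 to 12.9% (median 11.4%), macrophages from 9.12 to 11.8% (median 10.1%) and fibroblasts from 6.82 to 11.0% (median 8.86%). The T/NK share exceeded that of fibroblasts, macrophages and hormone-sensing luminal cells in 7 of 7 mice without overlap, and the B share exceeded these and the tumor/alveolar share in 4 of 4 mice without overlap. T/NK and B cells were close: T/NK lay higher in 4 of 4 mice, by 2.33 ± 1.73 percentage points, with overlapping ranges. Among the other classes, tumor/alveolar cells lay above fibroblasts in 7 of 7 mice (by 4.36 ± 2.001 points) and above macrophages in 6 of 7 (by 3.22 ± 2.72 points), but above hormone-sensing luminal cells in only 5 of 7 (by 1.93 ± 2.58 points), with overlapping ranges in each case. Fibroblasts lay below macrophages in 5 of 7 mice. These shares are a summed score over the members, so they are given as values without a test. A larger share cannot be told apart here from fewer transcripts of other genes in a cell.

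**Figure D1:**
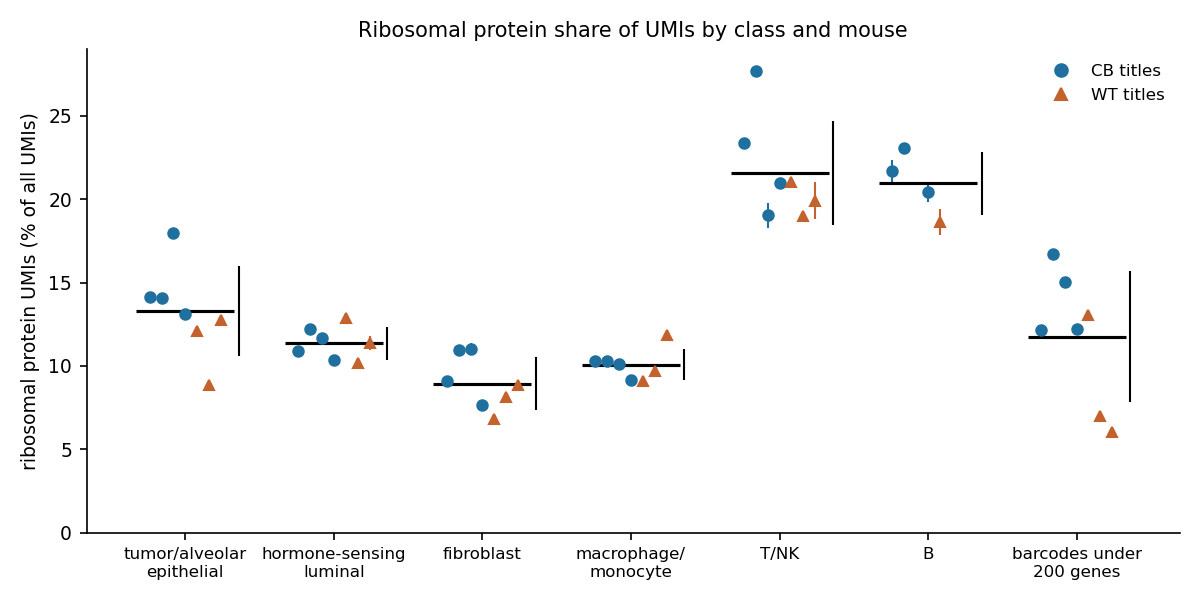
The vertical axis is the percent of a class's UMIs that fell on the 83 ribosomal protein genes, with 1 point per mouse (circles, CB titles; triangles, WT titles), its 95% binomial interval, a horizontal line at the mean and a vertical line of ±SD, for each cell class and for barcodes under 200 genes. T/NK (mean 21.6%) and B (mean 20.9%) sit above the tumor/alveolar class (mean 13.3%) and above the other classes.

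T/NK cells stood above tumor/alveolar cells at either depth, without the most abundant transcripts and in both title series. When only cells with fewer than 600 UMIs were summed, T/NK stood at 22.7% (n = 6 mice) and tumor/alveolar at 13.1%, and with 600 or more UMIs they stood at 21.9% (n = 5) and 13.3%. With the 50 most abundant other genes taken out of the denominator, the T/NK mean was 23.8% and the tumor/alveolar mean 15.98%, and T/NK remained higher in 7 of 7 mice. Within the CB titles the means were 22.8% for T/NK and 14.8% for tumor/alveolar, and within the WT titles 19.97 and 11.2%. In barcodes under 200 genes, which were not put into classes, the family stood at 11.7 ± 3.93% (SD), a mean below every T/NK value. What these barcodes hold was not tested.

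The balance between the subunits differed between classes by a few percentage points. Small subunit genes held 46.9 ± 0.849% of the family's UMIs in tumor/alveolar cells, 46.2 ± 0.806% in hormone-sensing luminal cells, 46.9 ± 1.03% in fibroblasts, 48.0 ± 0.607% in macrophages, 48.8 ± 0.432% in T/NK cells and 49.7 ± 0.463% in B cells (SD over mice). Within a mouse the T/NK value lay above the tumor/alveolar value in 7 of 7 mice, by 1.86 ± 0.85 points, and the hormone-sensing luminal value below it in 7 of 7, with a difference of -0.70 ± 0.31 points. B values lay above T/NK values in 4 of 4 mice, by 0.930 ± 0.392 points, and above the ranges of the other 4 classes without overlap. The acidic stalk genes are Rplp0, Rplp1 and Rplp2, whose products bring elongation factors to the ribosome. They held 8.27 ± 0.992% of the family's UMIs in fibroblasts, 6.77 ± 0.747% in tumor/alveolar cells and 6.48 ± 0.833% in B cells. The difference between fibroblasts and tumor/alveolar cells lay mostly in Rplp1, whose part of the family is given below. The spread of single members is given as a description, since a sum over many members would vary less in any case. In tumor/alveolar cells the share of the family's UMIs held by Rpl37 differed 5.83-fold between the lowest and the highest mouse, that of Rps29 5.50-fold and that of Rpl10a 4.86-fold. Rpl14 differed 1.18-fold, Rpl30 1.19-fold, and the median over 77 members was 1.71-fold.

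Replicates 1 and 2 stood apart in the short members. The 11 members with a coding sequence under 300 bases, Rps27 and Rps29 among them, held 16.7 and 14.6% of the family's UMIs in these replicates and 7.86 to 10.8% in the other 5. Among other coding genes, the 451 with equally short coding sequences held 8.88 and 9.01% of the UMIs in replicates 1 and 2 and 7.38 to 9.38% in the other 5, overlapping ranges. The higher level of the short members was present in tumor/alveolar cells (16.8 and 14.9% against 7.80 to 10.7%) and in macrophages (17.3 and 14.9% against 8.26 to 10.9%) alike. In the other 4 classes the short members held 14.1 to 17.96% in replicates 1 and 2 and 7.64 to 11.01% in the rest. Other short genes in hormone-sensing luminal cells held 11.3 and 10.9% in replicates 1 and 2, above the 7.45 to 10.4% of the rest. In fibroblasts only replicate 2 lay above the rest, at 8.02%. In T/NK and B cells both replicates lay within the range of the rest. Not every short member of the family followed the family's sum. In tumor/alveolar cells Rpl38 held 1.65 and 1.54% of the family's UMIs in replicates 1 and 2 and more in replicates 4 and 7 (2.16 and 2.05%), and Rps27l was highest in replicate 7 (1.07%). Each comparison between classes was also made without replicates 1 and 2, an alternative chosen after seeing the data.

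**Figure D2:**
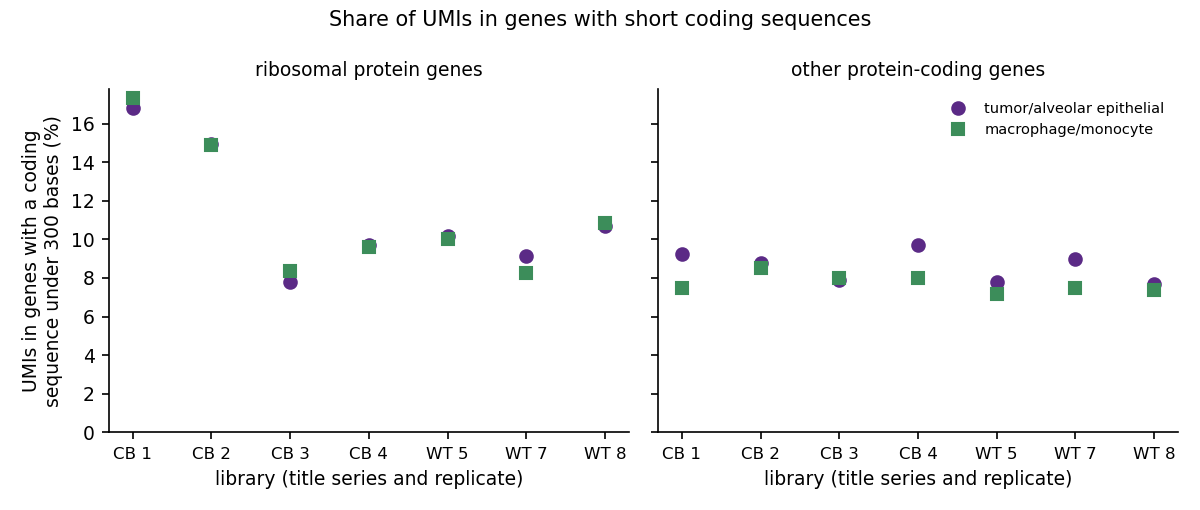
The vertical axes give, for each library, the percent of the family's UMIs held by the 11 members with a coding sequence under 300 bases and the percent of other coding UMIs held by other genes that short, in the tumor/alveolar and macrophage classes. Replicates 1 and 2 lie above the other libraries for the members, at 14.9 to 17.3%, while for the other genes they lie within the range of the other libraries, except replicate 2 in macrophages at 8.53% against 7.15 to 7.99%.

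T/NK cells and macrophages are the main immune classes of these tumors, and the family separated them more than genes at large did. UMIs were summed per mouse and class, and edgeR's quasi-likelihood test was run over all 2135 genes that passed the filter on low counts, blocking on mouse and adjusting p by Benjamini and Hochberg's procedure. In T/NK cells 72 of the 77 members tested were higher and 1 was lower, where 58.0% of all genes tested were called, 26.5% higher and 31.5% lower. The median log2 fold change of the members was 0.85, against -0.01 over all genes tested, and members ranged from -0.83 to 1.48. The 6 rarely counted members listed above did not pass the filter.

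Of the small subunit, Rps27, which encodes a zinc finger protein, rose most. It had 1751 to 6703 CPM (median 2177) in T/NK cells and 594 to 1574 CPM (median 746) in macrophages of the 7 mice. The ranges did not overlap, and the log2 fold change was 1.48 ± 0.22 (SE, edgeR adjusted p 5.8e-11). Rps15a, a core small subunit protein, had 3318 to 7276 CPM (median 4877) against 1000 to 1967 CPM (median 1493), with a log2 fold change of 1.42 ± 0.21 (edgeR adjusted p 1.5e-10). Rps7 had 2729 to 4130 CPM against 833 to 1459 CPM (1.33 ± 0.21, edgeR adjusted p 1.8e-09). All 3 were higher in T/NK cells of every mouse, and none had overlapping ranges. Rpsa, also known as the laminin receptor precursor, rose by 1.15 ± 0.21, and Rps6, the substrate of the S6 kinases, by 1.03 ± 0.20. The small subunit genes Rps14, Rps4x, Rps19 and Rps2 rose by 0.88, 0.78, 0.77 and 0.75 on the log2 scale. The least raised called members were Rps27a, which is made as a fusion with ubiquitin, at 0.48 ± 0.21 (edgeR adjusted p 0.044) and Rpl7a at 0.47 ± 0.21 (edgeR adjusted p 0.038).

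Of the large subunit, Rpl13a gave 1.28 ± 0.21 and Rpl12 1.17 ± 0.21 on the log2 scale. Rpl5 (1.08 ± 0.20) and Rpl11 (0.66 ± 0.21), which bind 5S rRNA and can hold back Mdm2, both rose, and so did the stalk genes Rplp0 (0.89 ± 0.21), Rplp2 (0.82 ± 0.22) and Rplp1 (0.74 ± 0.22). Rplp1 had 5607 to 9342 CPM in T/NK cells and 2957 to 3901 CPM in macrophages, again without overlap. Rpl3, near the catalytic center, rose by 0.91, Rpl39 by 0.85 and Rpl22, whose loss is known to arrest T cell development, by 0.77. Members that did not pass were Rpl10, a late-joining large subunit protein, at 0.12 ± 0.21, Rps29 at 0.29 ± 0.21, Fau, made as a fusion with a ubiquitin-like protein, at 0.33 ± 0.21, and Rps9 at 0.47 ± 0.21, just over the threshold. Rps27l, a paralog of Rps27 known as a p53 target, was the member that fell (-0.83 ± 0.20, edgeR adjusted p 0.00011). It had 184 to 456 CPM (median 315) in T/NK cells and 366 to 572 CPM (median 472) in macrophages. It was lower in 6 of 7 mice, with overlapping ranges. Its T/NK values rest on 1 to 83 UMIs per mouse, with 5 in replicate 3, which gave the highest CPM, and 1 in replicate 8.

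Another library scaling moved the median of all genes, by 0.17 with library size alone and by -0.23 with DESeq2's size factors, and the members' median lay 0.78 to 0.999 above it over these, the family's own scale and no filter. Within the CB titles 74 members were higher (median 1.04) and within the 3 WT mice 4 (median 0.61), and without replicates 1 and 2 39 were (median 0.66). Of 8 proliferation genes tested 5 were higher in T/NK cells, and of 14 dissociation response genes 3 were higher and 6 lower, beside the 58.0% of all genes called. Which class carried the proliferation genes past the filter was not checked. The summed dissociation list had 6293 to 12685 CPM in T/NK cells and 6368 to 17288 CPM in macrophages, and the summed proliferation list 1799 to 4523 and 835 to 1966 CPM. The part of either list in the result was not tested.

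**Figure D3:**
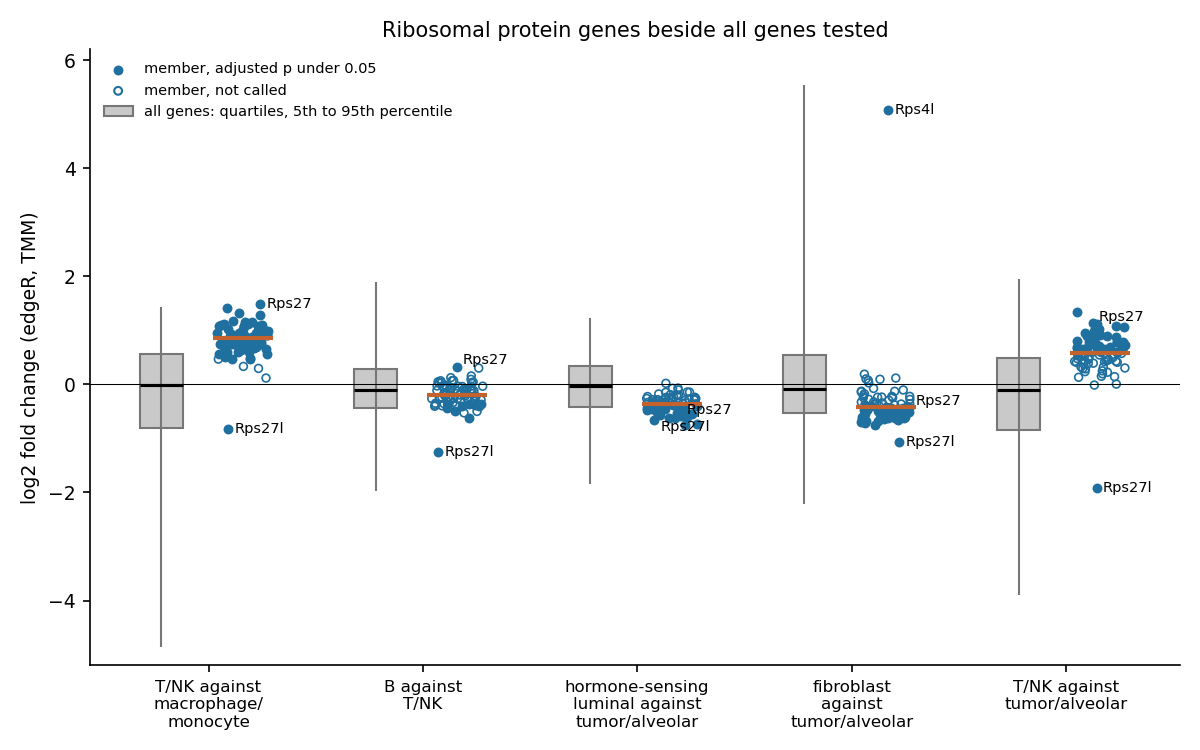
The vertical axis is the log2 fold change of each member in the 5 comparisons (filled, adjusted p under 0.05; open, not called), an orange line marks the members' median, and the grey box and line give the quartiles and the 5th to 95th percentiles of all genes tested. The members' median is 0.85 for T/NK against macrophage and 0.59 for T/NK against tumor/alveolar and lies below 0 in the other 3, while Rps27l lies below 0 in all 5, although in B against T/NK it passed the filter only through T/NK cells.

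To see which members left the family, each sum was also scaled to its own ribosomal protein UMIs, so that the members' median is near 0 by construction. On this scale 9 of the 77 members tested were higher in T/NK cells than in macrophages and 11 lower, where 73.9% of all genes were called, 4.73% higher and 69.1% lower. Rps27 (0.64 ± 0.12), Rps15a (0.61 ± 0.11), Rps7 (0.51 ± 0.12) and Rpl12 (0.31 ± 0.13) were among those farthest above. Rps15a held 2.33% of the family's UMIs in T/NK cells and 1.48% in macrophages, and it was higher in 7 of 7 mice. Rps27l (-1.82 ± 0.21), Rpl10 (-0.74 ± 0.12), Rps29 (-0.59 ± 0.13), Fau (-0.52 ± 0.11) and Rpl7a (-0.40 ± 0.13) lay farthest below, each lower in 7 of 7 mice. Rpl10 took 1.17% of the family's UMIs in T/NK cells and 1.99% in macrophages, and Fau 1.18 and 1.67%. Rpl10 and Fau, whose CPM did not differ past the threshold, thus took a smaller part of the family in T/NK cells. The count of 20 was 13 without replicate 4 and 13 without replicate 5.

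Against tumor/alveolar cells, T/NK cells again had more of the family, with wider errors. Of 77 members tested 37 were higher and 1 lower, where 55.3% of the 3316 genes tested were called, 23.7% higher and 31.6% lower. The members' median was 0.59 and that of all genes -0.10, and over the other scalings and without the filter the members' median lay 0.65 to 0.94 above theirs (DESeq2's size factors moved all genes by -0.33). These values share the T/NK sums with the comparison above and are not independent of it. Rps15a led, with 788 to 2826 CPM (median 1802) in tumor/alveolar cells against the T/NK values already given (1.34 ± 0.28, edgeR adjusted p 6.6e-06), and the ranges did not overlap. Rps27 had 568.2 to 2441 CPM (median 1159) in tumor/alveolar cells, overlapping T/NK between mice but lower than T/NK within every mouse (1.13 ± 0.28, edgeR adjusted p 0.00013). Rps20 had 1416 to 2577 CPM against 3343 to 5189 CPM in T/NK cells, without overlap (1.11 ± 0.28, edgeR adjusted p 0.0002).

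Other called members included Rpl30 (1.08 ± 0.25), Rps29 (1.05 ± 0.26), Rpsa (1.03 ± 0.26), Fau (0.80 ± 0.26), Rps6 (0.79 ± 0.23), Rplp1 (0.74 ± 0.29), Rpl5 (0.71 ± 0.23), Rpl13a (0.70 ± 0.20), Rplp2 (0.66 ± 0.29), Rpl3 (0.65 ± 0.25) and Rpl39 (0.67 ± 0.26). The smallest called changes were those of Rps4x and Rpl27a, each 0.59. Rpl10 (-0.01 ± 0.27), Rps27a (0.20 ± 0.28), Rps14 (0.40 ± 0.30), Rps19 (0.46 ± 0.29) and Rplp0 (0.59 ± 0.27) did not pass. Rps27l had 904 to 1350 CPM (median 1094) in tumor/alveolar cells and 184 to 456 CPM in T/NK cells. It fell without overlap and in 7 of 7 mice (-1.92 ± 0.25, edgeR adjusted p 1.2e-13). The T/NK values of replicates 3 and 8 rest on 5 and 1 UMIs, so in these 2 mice the lack of overlap is uncertain.

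TMM, edgeR's scaling of each sum by a trimmed mean of log ratios, gave the 11 T/NK cells of replicate 8 a factor of 2.21 and the 22 of replicate 3 a factor of 1.43, and with library size alone 71 members were higher. The count was 5 within the CB titles, 3 within the WT titles, 9 without replicates 1 and 2 and 5 without the filter on low counts. It was 59 without replicate 3, 18 without replicate 5 and 18 without replicate 7. On the family's own scale 13 members were higher and 15 lower, where 77.0% of all genes were called, 8.23% higher and 68.8% lower. Rps15a (0.78 ± 0.11), Rps27 and Rps20 (0.54 each), Rpl30 (0.46 ± 0.13) and Rpsa (0.43 ± 0.12) lay farthest above, and Rps27l (-2.72 ± 0.18), Rpl10 (-0.62 ± 0.12), Rpl28 (-0.57 ± 0.16) and Rpl7a (-0.50 ± 0.13) were among those farthest below. Of 15 proliferation genes listed 8 were tested, and all 8 were higher in T/NK cells on the first scale. Which class carried them past the filter was not checked, so this count is a description. Of 14 dissociation genes tested 3 were higher and 10 lower, beside the 55.3% of all genes called on the first scale. Summed dissociation levels were 6293 to 12685 CPM in T/NK cells and 12572 to 44406 CPM in tumor/alveolar cells. The part of either list in the result was not tested.

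Few members were called between B and T/NK cells, where the B sums of 4 mice held 106816 UMIs in all, and a member that was not called is not shown to be alike in both. In the 4 mice with enough B cells 1 of 77 members tested was higher in B cells and 10 were lower, where 20.3% of the 952 genes tested were called, 9.35% higher and 10.9% lower. The 11 members called were 14.3% of those tested, below the share of all genes. The median of the 77 members tested was -0.19, against -0.11 over all genes tested. Rps27 had 7581, 8321, 2678 and 3828 CPM in the B cells of replicates 1, 2, 4 and 5 and 5866, 6703, 2177 and 3032 CPM in their T/NK cells. It was higher in B cells of every mouse, by less than the spread between mice (0.33 ± 0.12, edgeR adjusted p 0.042). Rps27l had 201, 94.4, 161 and 103 CPM in B cells and 184, 342, 371 and 206 CPM in T/NK cells of these mice. The B values rest on 3, 6, 3 and 1 UMIs, 13 in all, and only 1 of the 4 B sums reached the limit of the filter on low counts. Rps27l passed it through T/NK cells, so it is counted among the 10 but its call is not read as a result. Rpl3 (-0.62 ± 0.18), Rps3 (-0.44 ± 0.12), Rplp0 (-0.40 ± 0.14), Rplp1 (-0.39 ± 0.11), Rplp2 (-0.36 ± 0.12) and Rps15a (-0.36 ± 0.12) were lower in B cells of 4 of 4 mice. The lower members were 13% of those tested, close to the 10.9% of all genes, so these names are a description. On the family's own scale Rps27 (0.49 ± 0.11), Fau (0.46 ± 0.13) and Rps19 (0.30 ± 0.11) were higher and none was lower, where 18.5% of all genes were called (11.1% higher, 7.35% lower), and 8 members had an unadjusted p under 0.05. On the first scale DESeq2 called 0 members in either direction, Rps27 included, and the count of 10 became 5 without replicate 1, 2 without replicate 2, 16 without replicate 4 and 6 without replicate 5. Of 14 dissociation response genes tested 5 were higher in B than in T/NK cells and 0 lower, and of 3 proliferation genes 0 were higher and 1 lower. The part of either list in the result was not tested.

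Hormone-sensing luminal cells, which carry estrogen and progesterone receptors, had lower levels of many members than tumor/alveolar cells, although the family's share was lower in 5 of 7 mice only. Of 77 members tested 0 were higher and 33 lower by edgeR's quasi-likelihood test, where 31.4% of the 5713 genes tested were called, 14.2% higher and 17.2% lower, and 49 members had an unadjusted p under 0.05. The members' median was -0.36 and that of all genes -0.03, and over the other scalings and without the filter the members lay 0.29 to 0.39 below all genes (library size alone moved all genes by 0.13). Rpl23a had 651 to 1909 CPM (median 1681) in hormone-sensing luminal cells and 1128 to 2792 CPM (median 2305) in tumor/alveolar cells. The ranges overlapped, but it was lower in 7 of 7 mice (-0.75 ± 0.15, edgeR adjusted p 0.00011). Rpl37a (-0.73 ± 0.15) was likewise lower in 7 of 7 mice, and Rps27l (-0.66 ± 0.16) in 6 of 7, with 489 to 1025 CPM. Rps27a (-0.62 ± 0.16), Rps27 (-0.59 ± 0.15), Rpl10 (-0.59 ± 0.15), Rps6 (-0.56 ± 0.14), Rps14 (-0.55 ± 0.16), Rplp2 (-0.49 ± 0.15), Fau (-0.46 ± 0.15) and Rps19 (-0.42 ± 0.15) fell too, and the smallest called changes were those of Rps10 and Rps23 (-0.39 each) and Rps9 (-0.38). Rpl13a (0.02 ± 0.15), Rpl5 (-0.10 ± 0.15), Rpl39 (-0.14 ± 0.15) and Rplp0 (-0.19 ± 0.15) did not pass.

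Relative to the family, few members were called between the luminal classes, which does not show that the rest were alike. On that scale members ranged from -0.37 to 0.36. The small subunit share was lower in hormone-sensing luminal cells in 7 of 7 mice, as given above. Only Rpl23a (-0.37 ± 0.13) and Rpl37a (-0.36 ± 0.13) were called on the family's own scale, both lower, where 36.8% of all genes were called (27.4% higher, 9.43% lower). Neither call was made without replicate 2 or 4, and 1 was left without replicate 1 or 7. The count of 33 was 20 without replicate 1, 20 without replicate 3 and 18 without replicate 4. It was 0 within the WT titles, 52 within the CB titles and 54 with DESeq2. Of 12 proliferation genes tested 8 were higher in hormone-sensing luminal cells and 0 lower. Which class carried these past the filter was not checked. Of 15 dissociation response genes 2 were higher and 5 lower, beside the 31.4% of all genes called on the first scale. The part of either list in the result was not tested.

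Fibroblasts, the collagen-making cells of the stroma, had the lowest mean share of the family among the 6 classes. Of 78 members tested against tumor/alveolar cells 1 was higher and 45 lower, where 45.5% of the 4225 genes tested were called, 23.2% higher and 22.3% lower. The higher 1, Rps4l, passed the filter on low counts only through its fibroblast counts, so its call is not read as a result. The members' median was -0.43 and that of all genes -0.08, and members lay 0.32 to 0.39 below all genes over the other scalings and without the filter (library size alone moved all genes by -0.19). Rps27l had 281 to 635 CPM (median 515) in fibroblasts, below all 7 tumor/alveolar values (-1.06 ± 0.16, edgeR adjusted p 4.4e-05). Rpl23 (-0.76 ± 0.18) and Rpl23a (-0.71 ± 0.17, with 635 to 1541 CPM) followed, each lower in 7 of 7 mice. Rps27a (-0.69 ± 0.16), Rpl13a (-0.63 ± 0.16), Rpl3 (-0.63 ± 0.15), Fau (-0.62 ± 0.15), Rps6 (-0.58 ± 0.17), Rps14 (-0.55 ± 0.16), Rps19 (-0.50 ± 0.15), Rpl5 (-0.46 ± 0.15) and Rpl11 (-0.44 ± 0.14) also fell, and Rpl35 (-0.40 ± 0.16) was among the smallest called changes. Fau had 691 to 814 CPM in fibroblasts, below its 987 to 1676 CPM in tumor/alveolar cells.

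Not every member was called lower in fibroblasts, and a member that was not called is not shown to be alike in both. Rplp1 had 3045 to 5940 CPM (median 3615) in fibroblasts and 2589 to 5883 CPM (median 3949) in tumor/alveolar cells, ranges that nearly coincide (0.19 ± 0.16). Rps20 (0.12 ± 0.16), Rps12 (0.10 ± 0.16), Rpl31 (0.09 ± 0.14) and Rpl30 (0.08 ± 0.14) did not pass either. On the family's own scale 6 members were higher and 2 lower, where 41.8% of all genes were called (31.6% higher, 10.3% lower). The 6 count Rps4l, for which the limit just given holds. The other 5 were Rplp1 (0.56 ± 0.13), Rps20 (0.49 ± 0.14), Rps12 (0.48 ± 0.13), Rpl31 (0.47 ± 0.14) and Rpl30 (0.45 ± 0.15), and each was higher in 7 of 7 mice. The lower were Rps27l (-0.70 ± 0.17) and Rpl23 (-0.39 ± 0.15). Rplp1 thus took 4.33% of the family's UMIs in fibroblasts and 2.92% in tumor/alveolar cells. The count of 45 was 27 without replicate 4 and 25 without replicate 5, and 1 within the WT titles. Of 15 dissociation response genes 2 were higher and 3 lower in fibroblasts, and of 3 proliferation genes 0 were higher and 1 lower, with 45.5% of all genes called. The part of these lists in the result was not tested.

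**Figure D4:**
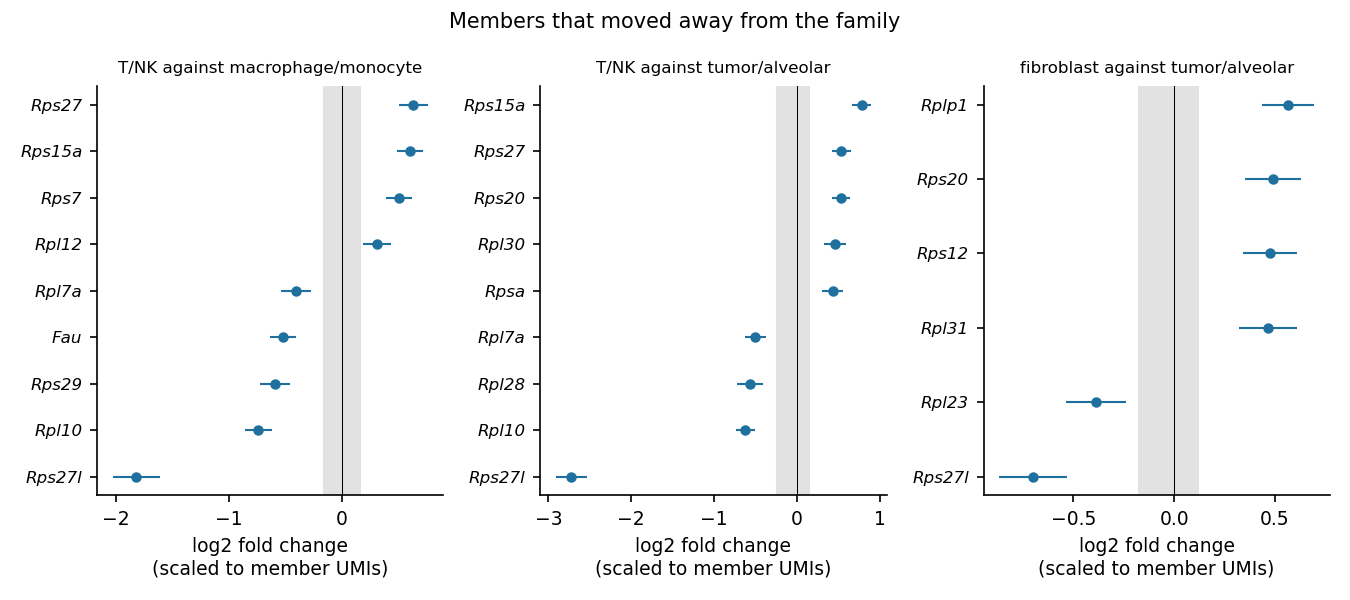
The horizontal axis is the log2 fold change after scaling to the family's UMIs, with its SE, for the reported members among the 5 called farthest out on each side in 3 comparisons (Rps4l, which passed the filter only through fibroblasts, is not drawn), and the grey band spans the quartiles of the members tested. Rps27l is farthest below in all 3 panels (-1.82, -2.72 and -0.70), and Rps15a and Rps27 are above in both T/NK panels.

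Rps4l was counted mostly in fibroblasts and hormone-sensing luminal cells. It is annotated as a transcribed processed pseudogene of the Rps4 family in GENCODE vM21, at chr6:148354656-148355598 on the plus strand. It had 58.6 to 136 CPM (median 85.8) in fibroblasts and 0 to 11.5 CPM (median 1.83) in tumor/alveolar cells of the 7 mice. The ranges did not overlap, which is given as a description, since the gene passed the filter only through fibroblasts and did not pass it in the other 4 comparisons. Pooled over mice, the 84 UMIs in fibroblasts gave 82.8 CPM (exact Poisson 95% interval 66.1 to 103), 79 UMIs in hormone-sensing luminal cells 53.9 CPM (42.7 to 67.2), 29 in macrophages 17.0 CPM (11.4 to 24.4), 7 in T/NK cells 9.001 CPM (3.62 to 18.5) and 20 in tumor/alveolar cells 3.02 CPM (1.84 to 4.66). No UMI was found in B cells, which allows up to 28.1 CPM by a floor of 3 UMIs over the 4 mice and up to 34.5 CPM by the exact Poisson interval. These intervals cover counting error only. Rpl39l was also concentrated in fibroblasts, with 26 UMIs in 5 of 7 mice (25.6 CPM, 16.7 to 37.6) and 3 UMIs in tumor/alveolar cells (0.453 CPM, 0.0933 to 1.32). Rpl24 had 41 UMIs in tumor/alveolar cells, 6.18 CPM (4.44 to 8.39), and 1 to 10 UMIs in each other class. Rpl6l, Rpl10l and Rpl3l had 22, 5 and 2 UMIs in tumor/alveolar cells and at most 6 in any other class.

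Rps27 and Rps27l encode near-identical small subunit proteins from different chromosomes, and in T/NK cells Rps27 was higher and Rps27l lower than in macrophages and in tumor/alveolar cells. Rps27l was highest in tumor/alveolar cells (1087 ± 149 CPM, SD) and was lower in hormone-sensing luminal cells (767 ± 195 CPM), macrophages (469 ± 76.8 CPM), fibroblasts (462 ± 128 CPM), T/NK cells (296 ± 103 CPM) and B cells (140 ± 50.3 CPM), with macrophages and fibroblasts not apart beyond their spread. Rps27 had 5602 ± 2769 CPM in B cells, 3331 ± 2076 CPM in T/NK cells (4444 ± 2180 CPM in the 4 mice with B values), 1382 ± 703 CPM in tumor/alveolar cells, 1043 ± 534 CPM in hormone-sensing luminal cells, 983 ± 445 CPM in macrophages and 887 ± 421 CPM in fibroblasts, and the last 4 overlap. With 0.5 added to each UMI count, the ratio of Rps27 to Rps27l, as a geometric mean over mice, was 1.15 in tumor/alveolar cells (0.600 to 2.23), 1.24 in hormone-sensing luminal cells, 1.80 in fibroblasts, 1.94 in macrophages (1.07 to 4.12), 9.55 in T/NK cells (3.73 to 30.5) and 31.2 in B cells (14.4 to 81.5), the last resting on 13 Rps27l UMIs. Within a mouse the log2 ratio was higher in T/NK than in tumor/alveolar cells by 3.06 ± 0.77 (SD, 7 of 7 mice) and higher in T/NK cells than in macrophages by 2.30 ± 0.78 (7 of 7). It was higher in fibroblasts than in tumor/alveolar cells by 0.65 ± 0.32 (7 of 7). The T/NK ratios of replicates 3 and 8 rest on 5 and 1 Rps27l UMIs. The 2-sided exact sign-flip permutation p was 0.0156 for each of the 3 differences, the smallest that 7 mice allow. After adjustment over 15 ratio comparisons it was 0.0586, so none passes 0.05. The B against T/NK difference is not read as a result, since Rps27l passed the filter there only through T/NK cells. The hormone-sensing luminal against tumor/alveolar difference was 0.11 ± 0.39 (exact permutation p 0.469).

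**Figure D5:**
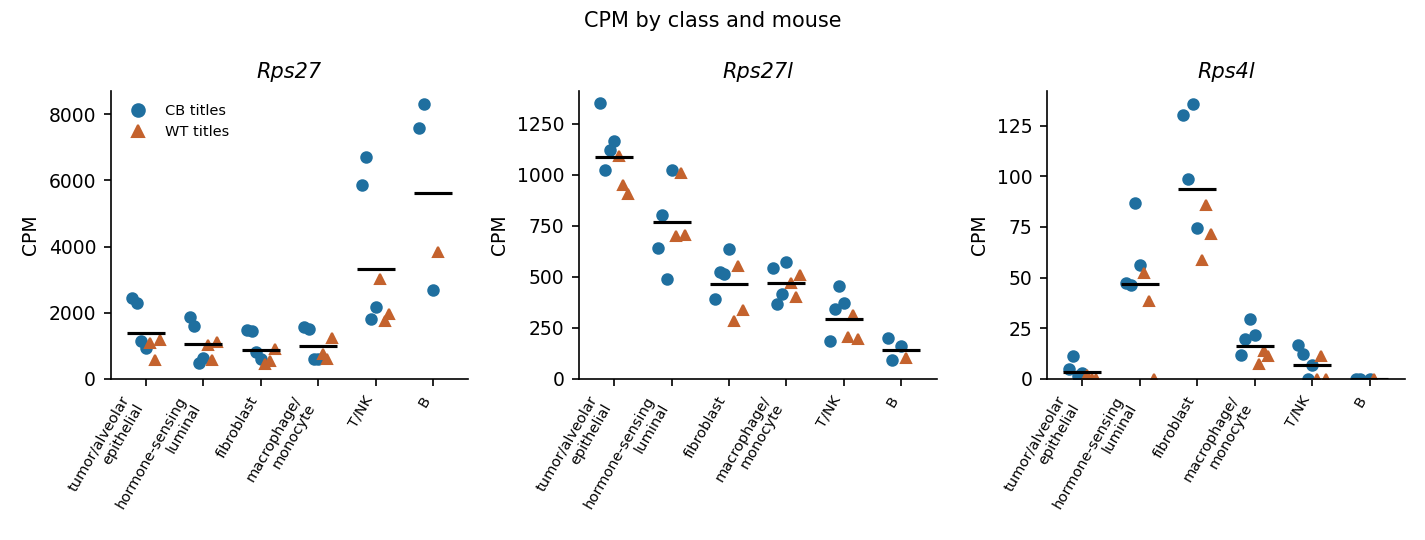
The vertical axes give the CPM of Rps27, Rps27l and Rps4l in each mouse (points) and the mean (line) by cell class. Rps27 is high in T/NK and B cells, Rps27l is highest in tumor/alveolar cells (mean 1087 CPM), its B points rest on 13 UMIs in all, and Rps4l is highest in fibroblasts.

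The other paralog pairs showed less. Rpl36a against Rpl36al, which falls outside the symbol rule, had, with the same 0.5 added, a higher log2 ratio in T/NK cells than in macrophages by 0.90 ± 0.59 (7 of 7 mice, exact permutation p 0.0156, adjusted 0.0586). In replicate 8 the T/NK ratio rests on 5 Rpl36a and 0 Rpl36al UMIs, so its size is set by the added 0.5. Rpl22 against Rpl22l1, also outside the rule, gave no exact permutation p under 0.125 in the 5 comparisons. Rpl7l1, a distant relative of Rpl7, stayed between means of 34.6 and 91.4 CPM in the 6 classes. Rack1, a scaffold on the small subunit, is a ribosomal protein without an Rp symbol, and it was higher in T/NK cells than in macrophages (0.68 ± 0.21).

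Other genes of the translation machinery were also higher in T/NK cells than in macrophages. Of 20 elongation factors and other TOP mRNAs 16 were higher in T/NK cells than in macrophages and 1, Vim, was lower, with a list median of 0.74, where 58.0% of all genes were called. Eef1g (1.15 ± 0.20), Npm1 (1.02 ± 0.20), Eef1b2 (0.97 ± 0.20) and Eef1a1 (0.67 ± 0.21) were among the 16. Eef1a1 encodes the factor that delivers aminoacyl-tRNA, and Npm1 serves ribosome assembly. The same list had 7 genes higher and 0 lower in T/NK than in tumor/alveolar cells (median 0.37), 0 higher and 3 lower of 18 in B than in T/NK cells, 1 higher and 4 lower in hormone-sensing luminal cells, and 1 higher and 7 lower in fibroblasts. Of all genes tested 55.3, 20.3, 31.4 and 45.5% were called in these 4 comparisons, and the list's share was below that in each. Vim, the intermediate filament gene of mesenchymal cells, was the gene higher in fibroblasts (5.91 ± 0.35), while Naca (-0.74 ± 0.14) and Gas5 (-0.76 ± 0.19) were lower.

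Many genes that build ribosomes had too few counts to be tested. Of 30 biogenesis genes 11 could be tested between T/NK cells and macrophages, where 7 were higher and 0 lower, among them Nop56 (1.23 ± 0.21), Ubtf (0.90 ± 0.27) and Ncl (0.71 ± 0.20), beside 58.0% of all genes called. Against tumor/alveolar cells 3 of 16 were higher in T/NK cells (Nop56, Fbl and Nop10) and 0 lower. In fibroblasts 3 of 19 were lower and 0 higher, and in hormone-sensing luminal cells 1 of 23 was higher. For B against T/NK, 0 of 7 were called. In these last 4 comparisons the list's share called was below that of all genes (55.3, 45.5, 31.4 and 20.3%). The mTORC1 and S6 kinase list was mostly under the filter, with 2 genes testable and 0 called between T/NK cells and macrophages and 0 testable for B against T/NK. Against tumor/alveolar cells 3 of 6 were higher and 2 lower in fibroblasts (45.5% of all genes called), 0 of 9 higher and 4 lower in hormone-sensing luminal cells (31.4%), and 0 of 6 higher and 2 lower in T/NK cells (55.3%). Eif4ebp1, which holds back cap-dependent translation, was higher in fibroblasts (0.69 ± 0.26) and lower in hormone-sensing luminal cells (-1.12 ± 0.26). Its relative Eif4ebp2 was lower in both (-0.95 ± 0.28 and -0.63 ± 0.24). Rheb, the activator of mTORC1, was higher in fibroblasts (0.45 ± 0.17). It was not checked which class carried Eif4ebp1, Eif4ebp2, Rheb or the called biogenesis genes past the filter, so their values are a description. Deptor, an mTOR inhibitor, averaged 230 ± 37.3 CPM in tumor/alveolar cells, 33.004 ± 14.3 CPM in fibroblasts and 17.8 ± 14.8 CPM in hormone-sensing luminal cells (SD, n = 7), with 1 UMI in T/NK cells. It passed the filter only through tumor/alveolar cells, so it is counted above but its levels are a description. Myc, which drives ribosome genes, was lower than in tumor/alveolar cells in hormone-sensing luminal cells (-1.51 ± 0.24, on 62 UMIs) and in T/NK cells (-0.77 ± 0.27, on 48 UMIs) and higher in fibroblasts (1.62 ± 0.25). It reached the filter limit in 5 of 7 hormone-sensing luminal and 7 of 7 tumor/alveolar sums. In the T/NK comparison these numbers were 4 and 6 of 7, and in the fibroblast comparison 7 and 6 of 7. Both lower values are therefore a description.

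The mitochondrial ribosomal proteins, a separate ribosome with 78 genes in the files, had few genes called. Between T/NK cells and macrophages 0 of 21 tested were higher and 1, Mrpl52, was lower, with a median of -0.02 against 0.85 for the cytosolic members. Mrpl52 reached the filter limit in 5 of 7 T/NK and 7 of 7 macrophage sums, so its call is counted but not read as a result. Between T/NK and tumor/alveolar cells 1 of 53 was higher and 10 lower (median -0.10), in fibroblasts 1 of 59 was higher and 13 lower (median -0.38), and in hormone-sensing luminal cells 1 of 71 was higher and 2 lower (median 0.01). For B against T/NK, 0 of 3 tested were called (median -0.34), where 20.3% of all genes were. Of all genes tested 58.0, 55.3, 45.5 and 31.4% were called in the other 4 comparisons. Their summed level was 5982 ± 539 CPM in tumor/alveolar cells, 4951 ± 679 CPM in T/NK cells and 4281 ± 527 CPM in macrophages (SD, n = 7). For the mitochondrial genes called against tumor/alveolar cells, the class that carried them past the filter was not checked, so these counts are a description. The difference between the lists was not tested.

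Sequence shared among copies limits single members. Of the 81 members with a principal coding transcript, 30 had not a single 50-base coding word that was absent from every other annotated gene, Rps27, Rpl10 and Fau among them, and 14 had such words over at least 50% of their length. For Rps27l 51.7% of the words were its own, for Rplp1 39.6%, for Rps15a 15.8%, for Rps7 4.69% and for Rpl39l 100%. How reads that match several copies were counted is not given in the sources used here, so levels of such members are uncertain. A further limit is that 18 members overlapped an exon on the other strand. Coding lengths ran from 75 to 1257 bases (median 453), and the members lay on 20 chromosomes, 4 of them on X.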

How the data were processed

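The deposited values are UMI counts per gene and barcode, 1 matrix for each of 7 Drop-seq libraries, not normalized by the authors; 0 columns of per-sample values were left unused. The study's methods name the mm10 mouse genome with the PyMT transgene added, whereas the submitters' processing notes name STAR and FastQC and list GRCh37.p13 and hg19; the rows are mouse symbols. The aligner's handling of multiply mapped reads is not given in the sources used here. Replicate 8 lists 81 of the 83 members and the other libraries list 83. Members and gene lists were chosen with earlier results of these data known.

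Barcodes with 200 to 6000 genes were kept. A cell entered a class when it had 3 or more UMIs from at least 2 markers of that class's list and 3 times as many as of any other list; the tumor/alveolar class needed at least 3% of UMIs in tumor markers, the other classes at most 2%. No doublet caller was run: doublets were left to the 6000-gene limit and to this rule. Counts were summed per mouse and class with at least 10 cells and tested over all genes passing filterByExpr with edgeR's quasi-likelihood test, TMM scaling, a block for the mouse and Benjamini-Hochberg adjusted p under 0.05, in 5 comparisons. Both sums of a mouse come from the same library, which is the pairing. A second fit replaced library sizes by the ribosomal protein UMIs. Each mouse is a single tumor and library, so the spread between libraries holds biological and technical variation together. Shares have 95% exact (Clopper-Pearson) binomial intervals and low counts exact Poisson intervals, which cover counting error only. The test was checked on simulated data.

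Named were members of known role and paralogs, in each comparison the 3 called members with the highest and the 3 with the lowest log2 fold change, the 5 called members farthest from the family on each side, and the most and least counted members; other names were chosen after their values were seen. A few genes that this rule names are not reported here. Alternatives were a minimum of 500 genes, a minimum of 20 cells, classes by likelihood, library size alone, no filter, DESeq2, no replicate block, each title series alone, each replicate left out and, added after seeing the data, replicates 1 and 2 left out. Symbols of processed copies (266 symbols, 0.587% of UMIs) were outside the rule. Start windows came from RefSeq (GRCm38.p6) and gene positions from GENCODE vM21. Software was Python 3.11.15, numpy 2.4.6, scipy 1.17.1, pandas 2.3.3, matplotlib 3.10.9, R 4.3.3, edgeR 4.0.16 and DESeq2 1.42.0.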

Additional observations from a re-analysis of the deposited data

Results flagged for a closer look

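Of 68 sets of values by mouse (family shares, short-member shares and the CPM of selected members in a class), 4 held a mouse far from the others by Dixon's criterion, where chance gives about 1 in 20. Fau had 804 CPM in the hormone-sensing luminal cells of replicate 8 and 1059 to 1189 CPM in the other 6 mice. Rps20 had 6052 CPM in the B cells of replicate 4 and 3681 to 3891 CPM in the other 3. Rplp1 had 5940 CPM in the fibroblasts of replicate 3 and 3045 to 4099 CPM in the other 6. Rps4l had 11.5 CPM in the tumor/alveolar cells of replicate 2 and 0 to 4.68 CPM in the other 6.

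Signal outside the symbol rule was present as well. The pseudogene symbols of the family held 93352 UMIs in cells, and Rps3a1, the gene of the Rps3a protein in mouse, whose symbol carries a further digit, held 20343.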

How the results depend on the processing

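The direction of the members' median was the same in all 5 comparisons under every alternative other than the ribosomal protein scale. Over 21 main values and their alternatives, 207 values were labeled the same, 66 moved and 2 reversed, and the cause was not tested. A count was the same within a fixed fold of the main count, and a median or share within its SD over mice. A mean share with mice left out lies within that SD by construction, so those values are no support for stability.

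For T/NK against macrophage the 72 higher members became 4 with the WT titles alone, 15 without the filter, 39 without replicates 1 and 2 and 9 on the ribosomal protein scale, and the median of 0.85 became 0.61 with the WT titles, 1.15 with library size, 0.54 without the filter and 0.0076 on the ribosomal protein scale. For B against T/NK the 10 lower members became 6 with the CB titles, 0 with DESeq2, 56 without the filter, 0 without the replicate block, 0 without replicates 1 and 2 and 0 on the ribosomal protein scale, with medians of -0.84 without the filter and -0.037 on the ribosomal protein scale; fits with 500 genes and with the WT titles alone were not run for B, since too few mice had enough cells. For hormone-sensing luminal against tumor/alveolar the 33 lower members became 52 with the CB titles, 54 with DESeq2, 0 with the WT titles, 12 with library size, 65 without the filter, 5 without the replicate block, 14 without replicates 1 and 2 and 2 on the ribosomal protein scale, where the median reversed to 0.017. For fibroblast against tumor/alveolar the 45 lower members became 1 with the WT titles, 69 without the filter, 19 without the replicate block, 22 without replicates 1 and 2 and 2 on the ribosomal protein scale, with medians of -0.81 without the filter and -0.056 on the ribosomal protein scale. For T/NK against tumor/alveolar the 37 higher members became 62 with 500 genes, 5 with the CB titles, 3 with the WT titles, 59 with classes by likelihood, 71 with library size, 5 without the filter, 19 without the replicate block, 9 without replicates 1 and 2 and 13 on the ribosomal protein scale, with medians of 0.22 without the filter and a reversed -0.035 on the ribosomal protein scale. On that scale the family is its own reference, so its median is near 0 by construction. In T/NK against macrophage, 61 members were higher without the replicate block.

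Without replicates 1 and 2, members departing from the family numbered 1 in B against T/NK, 0 in hormone-sensing luminal against tumor/alveolar and 15 in T/NK against tumor/alveolar. Without the 50 abundant genes the mean shares were 13.1% in hormone-sensing luminal cells, 12.4% in macrophages and 23.7% in B cells. Among named members, Rpl7a (-0.40) and Rps27a (-0.35) in T/NK against macrophage and Rpl27a (-0.0091) and Rps4x (-0.026) in T/NK against tumor/alveolar reversed on the ribosomal protein scale, and Rps27 (-0.33) in B against T/NK reversed without the filter. Values of named members that lost their call numbered 17 of 30 without the replicate block, 15 of 24 with the WT titles, 20 of 62 without replicates 1 and 2 and 8 of 30 with DESeq2. Rpl7a and Rps27a in T/NK against macrophage lost it in all 4, and Rpl3, Rplp2, Rps15a and Rps27 in B against T/NK in the 3 that could be run. Without the block, with the WT titles and without replicates 1 and 2, so did Rps9, Rps10 and Rps23 in hormone-sensing luminal cells, Rpl35 in fibroblasts and Rpl27a and Rps4x in T/NK against tumor/alveolar. Rpl37a in hormone-sensing luminal cells and Rpl23 in fibroblasts lost it without the block and with the WT titles, and with the WT titles Rpl23a in both classes, Rps27l in hormone-sensing luminal cells and Rps20 in T/NK against tumor/alveolar did too. On the family's scale, without replicates 1 and 2, Rps27 and Fau in B cells, Rpl23a and Rpl37a in hormone-sensing luminal cells and Rpl23 in fibroblasts lost theirs.

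Leaving out each replicate in turn gave 65 to 75 members and medians of 0.78 to 0.99 for T/NK against macrophage, 2 to 16 and -0.27 to -0.11 for B against T/NK, 18 to 45 and -0.44 to -0.28 for hormone-sensing luminal against tumor/alveolar, 25 to 48 and -0.48 to -0.37 for fibroblast against tumor/alveolar, and 18 to 59 and 0.46 to 0.72 for T/NK against tumor/alveolar. Members departing from the family numbered 13 to 21, 2 to 5, 0 to 2, 6 to 8 and 22 to 36 in this order. Mean shares ranged from 12.5 to 14.03% (tumor/alveolar), 11.1 to 11.6% (hormone-sensing luminal), 8.59 to 9.29% (fibroblast), 9.79 to 10.2% (macrophage), 20.5 to 21.99% (T/NK) and 20.2 to 21.7% (B).

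Small sums limit the T/NK and B classes most. With a median of 452 UMIs per T/NK cell and 386 per B cell, and few cells in some mice, only their most counted genes passed the filter. Members under 100 CPM could not be compared there. Depth per cell and cell number were not separated.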
